A study of Homo sapiens with 5 samples.

Results

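C5K13A and C4K13A are 2 clones of the human prostate cancer line C4-2B that carry the same change in HOXB13, K13A, in which lysine 13 is replaced by alanine. The comparison was defined by 1 library of C5K13A and 2 libraries of C4K13A, which are 3 of the 5 libraries of the study. The other 2 came from parental C4-2B cells without the change and were used to tell which clone had moved. They were also part of the fit, where they entered the filter, the scaling and the spread behind the p-values. All 5 were grown in the medium that the labels call C4-2B media, with no further agent named, and the labels give neither the way the clones were made nor the age of the cultures. C4-2B is a castration-resistant line from metastatic prostate cancer. Total RNA was depleted of ribosomal RNA and sequenced, and reads were counted per gene. Of 52419 autosomal gene IDs, 21497 had enough counts to be tested. The question asked of them was how far 2 clones with the same intended change differ from each other.

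HOXB13 is a homeobox protein that marks the prostate epithelium and binds DNA together with the androgen receptor and its cofactors. A clone is grown from a single cell, so besides an intended edit it carries whatever chromosome content and silenced or active genes that founder cell had. Sister clones of a cancer line therefore share most of their expression programme and can still differ in single genes that are silent in one and active in the other.

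Each clone is a single line. Whether the libraries of C4K13A were from separate cultures is not said in the labels. The p-values measure the spread between the C4K13A libraries and between the parental libraries, pooled in the fit. That spread may be technical, and C5K13A has no replicate at all. In the fit its spread was taken to be like that of the other groups. Total counts were 43190276 in C5K13A, 48442286 and 44229589 in C4K13A, and up to 57282373 in parental. Residual mitochondrial ribosomal RNA, which shows how complete the depletion was, came to 658 CPM (counts brought to one library total by edgeR's TMM factors) in C5K13A and to 65.4 and 353 CPM in C4K13A, so that C5K13A lay nearer to C4K13A library 2. It was 29.03 and 1723 CPM in the parental libraries. Luminal prostate genes were abundant in each library (KLK3 at 2295 CPM in C5K13A, 2637 and 2645 CPM in C4K13A). Summed markers of leukocytes stayed between 0.303 and 0.615 CPM over the 5 libraries, those of fibroblasts between 6.86 and 9.97 CPM and those of endothelium between 3.77 and 7.50 CPM. Of their defining markers PTPRC (leukocytes) and DCN (fibroblasts) were at or near 0, while COL1A1 (fibroblasts) had 3.65 to 6.70 CPM and VWF (endothelium) 2.63 to 5.58 CPM, with C5K13A inside both ranges.

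HOXB13 itself lies on the minus strand of chromosome 17, at 48724763 to 48729178 (all positions are on GRCh38, from GENCODE v29). It was transcribed at 353 CPM in C5K13A and at 345 and 346 CPM in C4K13A, against 337 and 449 CPM in parental. The values of the clones lay within the parental range and close together (log2 difference C5K13A minus C4K13A 0.03 ± 0.25 SE, adjusted p = 0.999, edgeR's quasi-likelihood test; its sign turned, to -0.076, in a fit with a covariate for residual ribosomal RNA). The counts per gene do not cover the K13A change itself, so the genotype of the clones was not checked by them.

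Between the clones 14 autosomal genes passed an adjusted p of 0.05, which is 0.0651% of those tested. Of these, 9 were higher in C5K13A (0.0419%) and 5 lower (0.0233%). They were EPHA3, EPHA6, DPYSL5, VIM, LGALS3BP, PRAC1, UGT2B17, SLC17A2 and SPAAR on the higher side, and IGF1, AFF3, ZNF736, ZNF728 and PDZRN4 on the lower. All 14 were protein-coding. Of 3682 tested long noncoding genes edgeR called 0, with 207 at an unadjusted p under 0.05. DESeq2, run as an alternative, called 169 autosomal genes (0.786%), 9 of them long noncoding, and limma-voom 0. The 14 were all among the DESeq2 calls, while with limma-voom their adjusted p ran from 0.113 to 0.892, and a filter at 5 CPM left 0 called by edgeR. A test against a minimum fold of 2 kept SPAAR, SLC17A2 and UGT2B17. With 1 library left out at a time, C5K13A excepted, the 14 kept their directions. Each of these refits held the same single C5K13A library, so they cannot show whether the calls would hold in another one. At an unadjusted p under 0.05 there were 1402 autosomal genes (6.52%), 772 higher (3.59%) and 630 lower (2.93%). For the same fit, 144 autosomal genes (0.67%) were called between C4K13A and parental and 8 (0.0372%) between C5K13A and parental. These comparisons share the parental libraries, and C5K13A has 1 library against 2, so the counts were not set against each other. In 71.0% of tested autosomal genes C5K13A did not overlap the C4K13A libraries, so that lack of overlap alone says little about a gene.

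**Figure D1:**
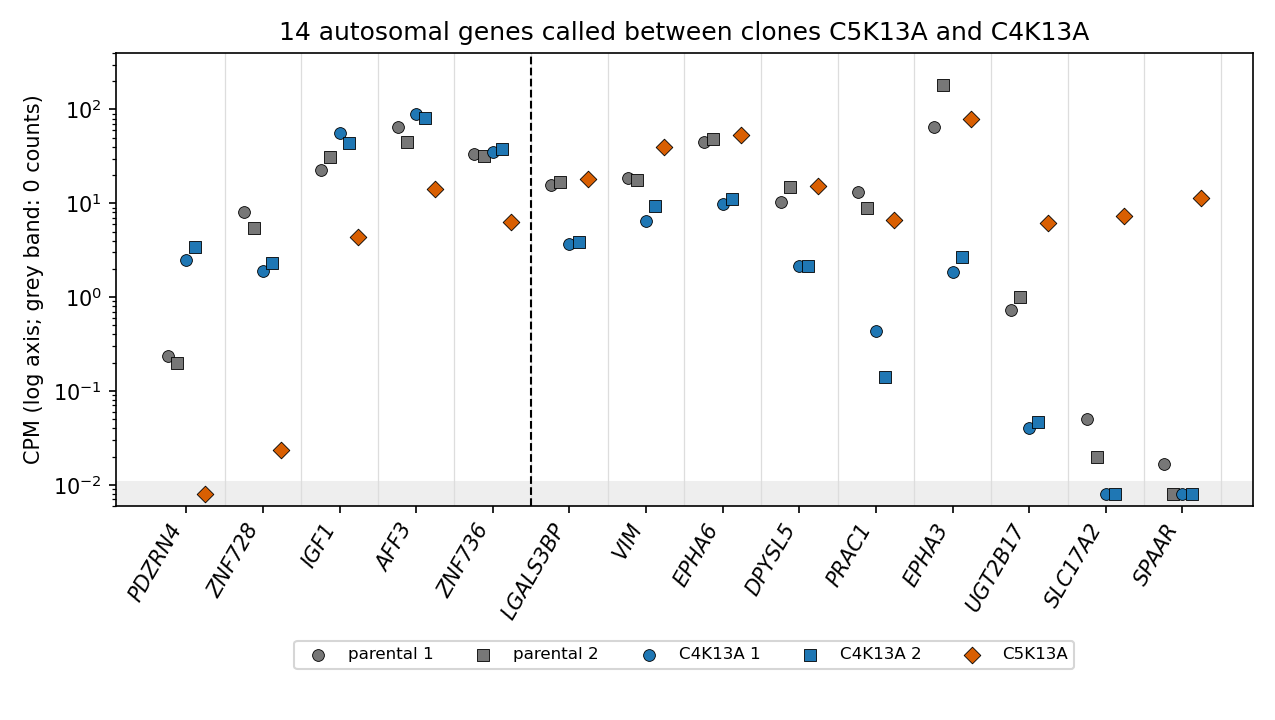
Expression of the 14 autosomal genes called between the clones, in CPM on a log axis, with 1 point per library and libraries with 0 counts drawn in the grey band. Genes left of the dashed line were lower in C5K13A (IGF1 at 4.42 CPM against 55.9 and 43.9 CPM in C4K13A) and those right of it higher (EPHA3 at 79.7 against 1.84 and 2.67 CPM).

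The sharpest differences were genes present in one clone and near absent from the other. Taking at least 2 CPM in one clone and under 0.1 CPM in each library of the other, 4 genes were present in C5K13A alone of the 2 clones (SPAAR, SLC17A2, UGT2B17 and ST8SIA4) and 3 in C4K13A alone (PDZRN4, VAT1L and ZNF415). The 200 bases that lie from 250 to 51 before the annotated start are shown for 4 called genes, SPAAR and SLC17A2, which were detected in C5K13A at over 2 CPM and had 0 counts in C4K13A, and PRAC1 and EPHA6, which were low in C4K13A. The sequences are RefSeq's (GRCh38.p14), written 5′ to 3′ on the strand of the gene, and capitals mark the CpG dinucleotides, the sites of DNA methylation. Methylation was not measured in these libraries.
SPAAR (chr9:35909240-35909439, plus strand, 5 CpG): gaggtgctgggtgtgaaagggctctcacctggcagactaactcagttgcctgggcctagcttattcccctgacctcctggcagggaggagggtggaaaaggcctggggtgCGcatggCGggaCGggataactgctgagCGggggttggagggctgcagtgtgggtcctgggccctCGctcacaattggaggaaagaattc
SLC17A2 (chr6:25930742-25930941, minus strand, 1 CpG): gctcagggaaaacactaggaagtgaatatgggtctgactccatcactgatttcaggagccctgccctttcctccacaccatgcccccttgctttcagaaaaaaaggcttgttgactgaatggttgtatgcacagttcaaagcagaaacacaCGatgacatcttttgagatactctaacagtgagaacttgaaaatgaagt
PRAC1 (chr17:48722569-48722768, minus strand, 5 CpG): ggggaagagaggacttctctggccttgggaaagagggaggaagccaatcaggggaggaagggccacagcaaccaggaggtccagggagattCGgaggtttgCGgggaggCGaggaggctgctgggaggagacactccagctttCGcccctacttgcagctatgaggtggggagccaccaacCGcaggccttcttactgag
EPHA6 (chr3:96814344-96814543, plus strand, 18 CpG): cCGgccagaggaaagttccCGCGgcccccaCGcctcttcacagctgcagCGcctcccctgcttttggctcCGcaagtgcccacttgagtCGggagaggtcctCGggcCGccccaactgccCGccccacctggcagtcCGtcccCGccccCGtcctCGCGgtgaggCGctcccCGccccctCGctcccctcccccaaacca

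Of the 17 genes that were called or present in one clone alone, 15 had an entry among the 33725 autosomal promoters of that table, and UGT2B17 and ZNF728 had none. Over all of those promoters the median was 8 CpG in this window, with quartiles at 2 and 17. At most 5 CpG were found in 9 of the 15, against 43.7% of all promoters, so windows poor and rich in CpG were both among them. The window leaves out the bases nearest the start and all that follow it, so its count does not class the whole promoter. SLC17A2 had 1 CpG, SPAAR and PRAC1 had 5 each, and EPHA6 had 18. The letters CCAATAAA and CTCGTAAA, forms of the motif bound by HOX proteins of the HOXB13 group, were searched on both strands. They were found in 0.676% and 0.0979% of all promoters and in 0 of the 15. At shares this low 0 of 15 would be usual, so it does not show that these genes lack such sites. The annotated start may not be the one used in these cells. Where a gene had several entries, the first was taken. For PDZRN4 (window from 41437489) and ZNF736 (window from 64313711) the window lay wholly inside the gene by the GENCODE positions given below. For AFF3, LGALS3BP, DPYSL5, EPHA3 and ZNF415 it overlapped the gene in part. PDZRN4, ZNF736, AFF3 and LGALS3BP were among the 9 with at most 5 CpG.

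SPAAR (chromosome 9, 35909483 to 35937153, plus strand) encodes a small lysosomal peptide that restrains amino-acid signalling through mTORC1. It had 11.5 CPM in C5K13A and 0 in both C4K13A libraries, and 0.0168 and 0 CPM in parental. C5K13A was the single library with more than 1 count. SPAAR was at least 356-fold higher in C5K13A than in C4K13A, against a floor of 3 counts over the 2 C4K13A libraries (edgeR adjusted p = 0.0246). Against parental it passed as well (adjusted p = 0.0286).

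SLC17A2 (chromosome 6, 25912754 to 25930726, minus strand) belongs to the sodium-phosphate transporter family SLC17. It had 7.26 CPM in C5K13A, 0 in both C4K13A libraries and 0.0504 and 0.0197 CPM in parental, so that again C5K13A alone stood above a handful of counts. It was at least 225-fold higher in C5K13A (adjusted p = 0.0246). The adjusted p against parental was 0.0343. Its tested neighbours within 1 Mb, 43 genes, had a median difference of 0.04 with 0 called, and those of SPAAR, 32 genes, a median of -0.04 with 0 called.

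UGT2B17 (chromosome 4, 68537184 to 68568527, minus strand) encodes an enzyme that couples androgens to glucuronic acid and so inactivates them. It had 6.17 CPM in C5K13A, 0.0400 and 0.0465 CPM in C4K13A and 0.723 and 1.00 CPM in parental. The clones lay on opposite sides of both parental libraries. The log2 difference between the clones was 7.08 ± 0.58 (adjusted p = 0.0246). By counts, of which C4K13A had 4, UGT2B17 was 144-fold higher in C5K13A, with an exact 95% interval of 55.4 to 531. The log2 difference was 2.84 ± 0.45 for C5K13A against parental (adjusted p = 0.130) and -4.25 ± 0.55 for C4K13A (adjusted p = 0.0197). UGT2B15, its near-identical neighbour with the same function, had 6.12 CPM in C5K13A, 0.400 and 0.163 CPM in C4K13A and 1.31 and 2.27 CPM in parental. The difference of UGT2B15 between the clones was 4.41 ± 0.59 and missed the threshold (adjusted p = 0.0624). Reads of these 2 genes may have been split between them. UGT2B11, further along the cluster, had 0.331 CPM in C5K13A, 0 in both C4K13A libraries and 0.235 and 0.0788 CPM in parental (adjusted p = 0.655). UGT2B28 had 0.142 CPM in C5K13A and 0 and 0.186 CPM in C4K13A (adjusted p = 0.999).

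ST8SIA4 on chromosome 5, a polysialyltransferase gene, had 8.84 CPM in C5K13A, 0 in both C4K13A libraries and 0.370 and 1.54 CPM in parental. It was at least 274-fold higher in C5K13A, yet its adjusted p was 0.0550. In the other direction, PDZRN4 (chromosome 12, 41188448 to 41574724, plus strand), a ubiquitin-ligase-like protein with PDZ domains, had 0 counts in C5K13A, 2.46 and 3.44 CPM in C4K13A and 0.235 and 0.197 CPM in parental. PDZRN4 was at least 41.1-fold lower in C5K13A than in C4K13A (adjusted p = 0.0461). C4K13A stood above both parental libraries (3.75 ± 0.47, adjusted p = 0.0175), and C5K13A below them. VAT1L on chromosome 16 had 0 counts in C5K13A, 2.76 and 3.32 CPM in C4K13A and 0.269 and 0 CPM in parental. It was at least 42.6-fold lower in C5K13A than in C4K13A (adjusted p = 0.318). C4K13A stood above both parental libraries, while C5K13A had 0 counts like parental library 2. ZNF415 on chromosome 19 had 4 counts in C5K13A, with 3.24 and 3.30 CPM in C4K13A and 1.80 and 0.847 CPM in parental. By counts ZNF415 was 34.5-fold lower in C5K13A than in C4K13A, with an exact 95% interval of 13.4 to 128 that covers counting error only (adjusted p = 0.112). C5K13A was below and C4K13A above both parental libraries. For VAT1L and ZNF415 the values are given without a call.

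The 2 Eph receptors called were both on chromosome 3 and both low in C4K13A. Eph receptors are receptor tyrosine kinases that read ephrins on neighbouring cells and steer adhesion and repulsion. EPHA3 (89107524 to 89482134, plus strand) had 79.7 CPM in C5K13A, 1.84 and 2.67 CPM in C4K13A and 65.3 and 182 CPM in parental. C5K13A lay within the parental range and C4K13A far below it. The difference between the clones was 5.15 ± 0.54 (adjusted p = 0.0342), with -5.78 ± 0.52 for C4K13A against parental (adjusted p = 0.00620) and -0.63 ± 0.52 for C5K13A (adjusted p = 0.872). EPHA6 (96814581 to 97752460, plus strand) had 53.5 CPM in C5K13A, 9.83 and 10.996 CPM in C4K13A and 44.6 and 48.6 CPM in parental (2.36 ± 0.21, adjusted p = 0.0246). Of 19 tested Eph receptors and ephrins these were the 2 called (10.5%, against 0.0651% of all tested autosomal genes), and 4 were higher and 1 lower at an unadjusted p under 0.05 (26.3%). DESeq2 also called EFNB2, an ephrin ligand, at 10.5 CPM in C5K13A, 20.2 and 29.9 CPM in C4K13A and 11.5 and 11.1 CPM in parental (-1.25 ± 0.31, edgeR adjusted p = 0.402). The median of the 19 was 0.04, against -0.03 over all tested autosomal genes.

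PRAC1 (chromosome 17, 48721719 to 48722522, minus strand) is a small nuclear protein of prostate and distal colon whose gene lies next to HOXB13. It had 6.71 CPM in C5K13A, 0.440 and 0.139 CPM in C4K13A and 13.3 and 8.98 CPM in parental. Both clones lay below both parental libraries, C5K13A by little and C4K13A by far. The difference between the clones was 4.49 ± 0.54 (adjusted p = 0.0461), with -5.23 ± 0.51 for C4K13A against parental (adjusted p = 0.00856) and -0.73 ± 0.50 for C5K13A (adjusted p = 0.854). The genes around it differed less. PRAC2, between PRAC1 and HOXB13, had 4.56 CPM in C5K13A and 4.48 and 3.72 CPM in C4K13A (0.15 ± 0.40). HOXB9, the next HOXB gene expressed at over 5 CPM, had 21.2 CPM in C5K13A, 8.39 and 9.83 CPM in C4K13A and 19.3 and 15.6 CPM in parental, a difference of 1.22 ± 0.26 that was not called (adjusted p = 0.276). PRAC1 and PRAC2 lie on opposite strands, and the strand setting of the counts is not given in the sources used here.

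DPYSL5 (chromosome 2, 26847747 to 26950351, plus strand), a cytoskeletal adaptor of growing axons, had 15.2 CPM in C5K13A, 2.16 and 2.14 CPM in C4K13A and 10.2 and 15.03 CPM in parental (2.82 ± 0.32, adjusted p = 0.0430). LGALS3BP (chromosome 17, 78971238 to 78980109, minus strand), a secreted galectin-binding glycoprotein induced by interferon, had 18.1 CPM in C5K13A, 3.68 and 3.91 CPM in C4K13A and 15.7 and 16.8 CPM in parental (2.26 ± 0.25, adjusted p = 0.0430). In both genes C5K13A was just above the parental values and C4K13A several-fold below them, and C4K13A passed the test against parental (adjusted p = 0.0114 for DPYSL5 and 0.00862 for LGALS3BP). VIM (chromosome 10, 17228259 to 17237593, plus strand) encodes vimentin, the intermediate filament of mesenchymal cells. It had 39.6 CPM in C5K13A, 6.46 and 9.35 CPM in C4K13A and 18.8 and 17.6 CPM in parental (2.33 ± 0.27, adjusted p = 0.0461). The clones stood on either side of parental, with 1.13 ± 0.27 for C5K13A (adjusted p = 0.380) and -1.20 ± 0.23 for C4K13A (adjusted p = 0.0737).

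Among the genes lower in C5K13A was IGF1 (chromosome 12, 102395874 to 102481744, minus strand), the insulin-like growth factor. It had 4.42 CPM in C5K13A, 55.9 and 43.9 CPM in C4K13A and 22.4 and 31.5 CPM in parental (-3.49 ± 0.34, adjusted p = 0.0282). C5K13A was below and C4K13A above both parental libraries, by -2.61 ± 0.33 (adjusted p = 0.0628) and 0.89 ± 0.23 (adjusted p = 0.162). AFF3 (chromosome 2, 99545419 to 100142739, minus strand), a nuclear protein of the AF4 family of transcription elongation factors, had 14.2 CPM in C5K13A, 88.8 and 82.1 CPM in C4K13A and 65.3 and 44.5 CPM in parental (-2.59 ± 0.31, adjusted p = 0.0461). Here too the clones stood on either side of parental.

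The 2 zinc finger genes called were lower in C5K13A. ZNF736 (chromosome 7, 64307459 to 64354860, plus strand) had 6.36 CPM in C5K13A, 35.0 and 37.8 CPM in C4K13A and 33.9 and 32.3 CPM in parental (-2.51 ± 0.25, adjusted p = 0.0282). The other 4 libraries lay close together, and C5K13A passed against parental as well (-2.38 ± 0.25, adjusted p = 0.0346). ZNF728 (chromosome 19, 22975468 to 23003176, minus strand) had 1 count in C5K13A, or 0.0236 CPM, with 1.88 and 2.32 CPM in C4K13A and 8.05 and 5.40 CPM in parental. By counts it was 88.2-fold lower in C5K13A than in C4K13A, with an exact 95% interval of 15.6 to 3501 (edgeR adjusted p = 0.04996, just under the threshold). It lies in a cluster of near-identical zinc finger genes, between which reads may have been split.

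By fitted fold change against parental, C4K13A alone was at least 2-fold away in 5 of the 14 genes (EPHA3, EPHA6, PRAC1, DPYSL5 and LGALS3BP), each of them lower in C4K13A. C5K13A alone was away in 3 (IGF1, AFF3 and ZNF736), each lower in C5K13A. Both were away in 6 (UGT2B17, VIM, ZNF728, PDZRN4, SLC17A2 and SPAAR). Of these 6, the C4K13A values of SLC17A2 and SPAAR rest on 4 parental counts and 1, so for them only the rise in C5K13A can be seen. In 10 of the 14 genes the clones lay on opposite sides of both parental libraries, counted with no minimum distance. For DPYSL5, EPHA6, LGALS3BP and ZNF736 1 of the clones was only just past parental. DPYSL5 had 15.2 CPM in C5K13A against 15.03 CPM in parental library 2. ZNF736 had 35.0 CPM in C4K13A library 1 against 33.9 CPM in parental library 1. The count therefore does not mean that both clones moved in each of the 10. Over the 772 genes higher in C5K13A at an unadjusted p under 0.05, C4K13A alone was away from parental in 238, C5K13A alone in 54, both in 95 and neither in 385. Over the 630 lower in C5K13A, C5K13A alone was away in 278, C4K13A alone in 48, both in 110 and neither in 194. Where a single clone was away it was thus more often the lower one, which describes genes chosen by that difference.

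The genes just past the threshold looked much the same as those inside it. Next in order were PPARG, HS3ST3B1, MYH14, ST8SIA4, PDE10A and ZNF454, with an adjusted p from 0.0543 to 0.0599. PPARG, a lipid-sensing nuclear receptor on chromosome 3, had 24.1 CPM in C5K13A, 1.88 and 2.21 CPM in C4K13A and 8.05 and 18.4 CPM in parental. MYH14, a nonmuscle myosin, had 86.2 CPM in C5K13A and 17.5 and 12.5 CPM in C4K13A. In all, 32 autosomal genes lay under 0.1 and 72 under 0.2.

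Beyond single genes, 2 whole chromosomes were shifted between the clones. Relative to the median of all 13880 tested autosomal protein-coding genes, those on chromosome 17 had a median log2 difference of 0.39 (865 genes), or 1.31-fold, and those on chromosome 3 one of 0.31 (806 genes), or 1.24-fold, both higher in C5K13A. On the other 20 autosomes the median lay between -0.08 and 0.05. On chromosome 17 86.0% and on chromosome 3 79.0% of the genes had a higher value in C5K13A, against 44.1% on the other autosomes. C5K13A was above both C4K13A libraries for 78.2% of the genes of chromosome 17 and 70.8% of those of chromosome 3, against 31.6% elsewhere. With 1 library of C5K13A these medians have no replicate error of their own, and they are given without a test.

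The parental libraries place the shift in C4K13A. Measured from the parental mean and relative to all autosomal genes, chromosome 17 had a median of -0.28 in C4K13A library 1, -0.29 in library 2 and 0.05 in C5K13A. Chromosome 3 had -0.26, -0.25 and 0.03. The 2 C4K13A libraries were alike and the parental libraries were 0.02 from their mean at most on both chromosomes. The genes in which both C4K13A libraries were below both parental ones made up 52.0% of those on chromosome 17 and 50% on chromosome 3, against 19.6% elsewhere. For C5K13A below both parental libraries the shares were 26.8%, 32.5% and 33.0%. The number of copies of each chromosome was not measured here. The medians held in each alternative fit, from 0.29 to 0.32 on chromosome 3 and from 0.37 to 0.41 on chromosome 17.

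**Figure D2:**
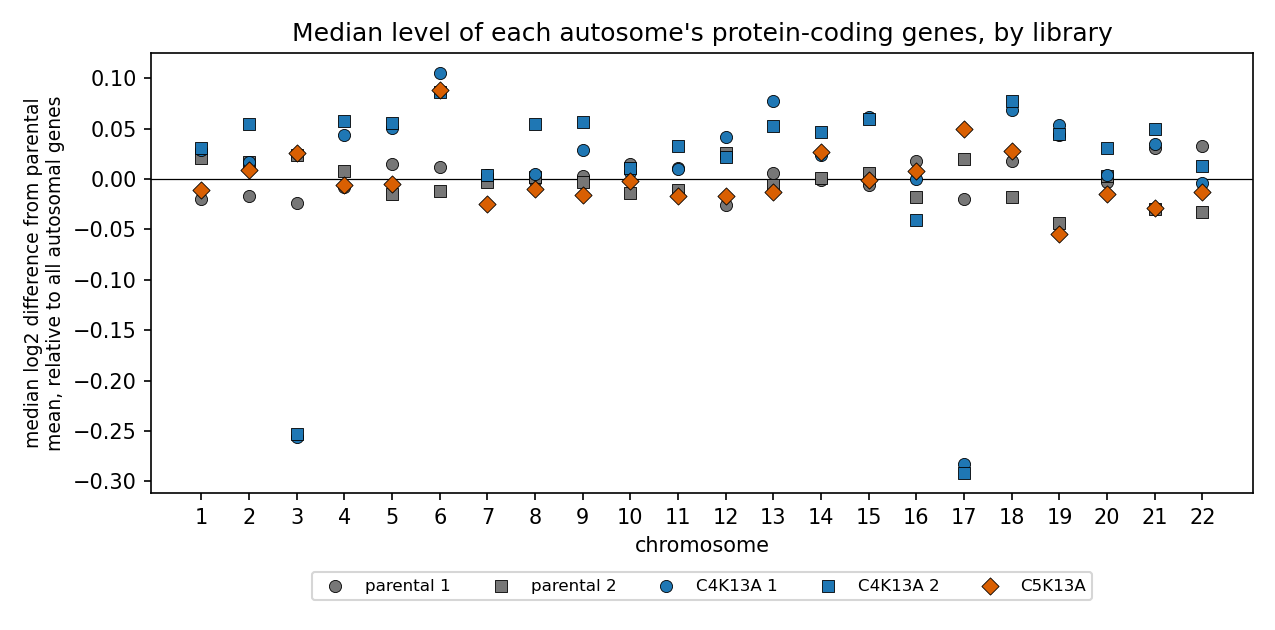
Median log2 level of the tested protein-coding genes of each autosome in each library, as the difference from the parental mean and relative to all autosomal genes. Both C4K13A libraries lie near -0.25 on chromosome 3 and near -0.29 on chromosome 17, where C5K13A lies at 0.03 and 0.05.

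The shift ran along both chromosomes. In fixed 10 Mb windows with at least 20 tested protein-coding genes, the relative median was above 0 in 9 of 9 windows of chromosome 17 (0.30 to 0.45) and in 14 of 14 of chromosome 3 (0.13 to 0.45). Over all autosomes 21 of 230 windows were at least 0.3 from the median of all genes, 18 higher in C5K13A and 3 lower. Of the 21, 8 were on chromosome 17, 8 on chromosome 3 and 3 on chromosome 16, with 1 each on chromosomes 6 and 19. The 199 windows on the other chromosomes than 3, 16 and 17 had relative medians from -0.32 to 0.31.

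Chromosome 16 was split into blocks of opposite sign. The windows from 0 to 40 Mb had a relative median of 0.27 (378 genes, 75.9% higher in C5K13A), and those from 50 to 80 Mb one of -0.39 (201 genes, 13.4% higher in C5K13A). Against parental, the first block had medians of 0.16 in C5K13A and -0.10 in C4K13A, and the second had -0.12 and 0.31, so that both clones contributed. The windows from 80 to 100 Mb did not differ (relative median -0.01, 79 genes), with -0.19 in both clones against parental. The block edges were chosen after the values were seen. The window of chromosome 6 from 40 to 50 Mb stood at 0.31 (82 genes), and that of chromosome 19 from 20 to 30 Mb, a zinc finger cluster, at -0.32 (29 genes).

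**Figure D3:**
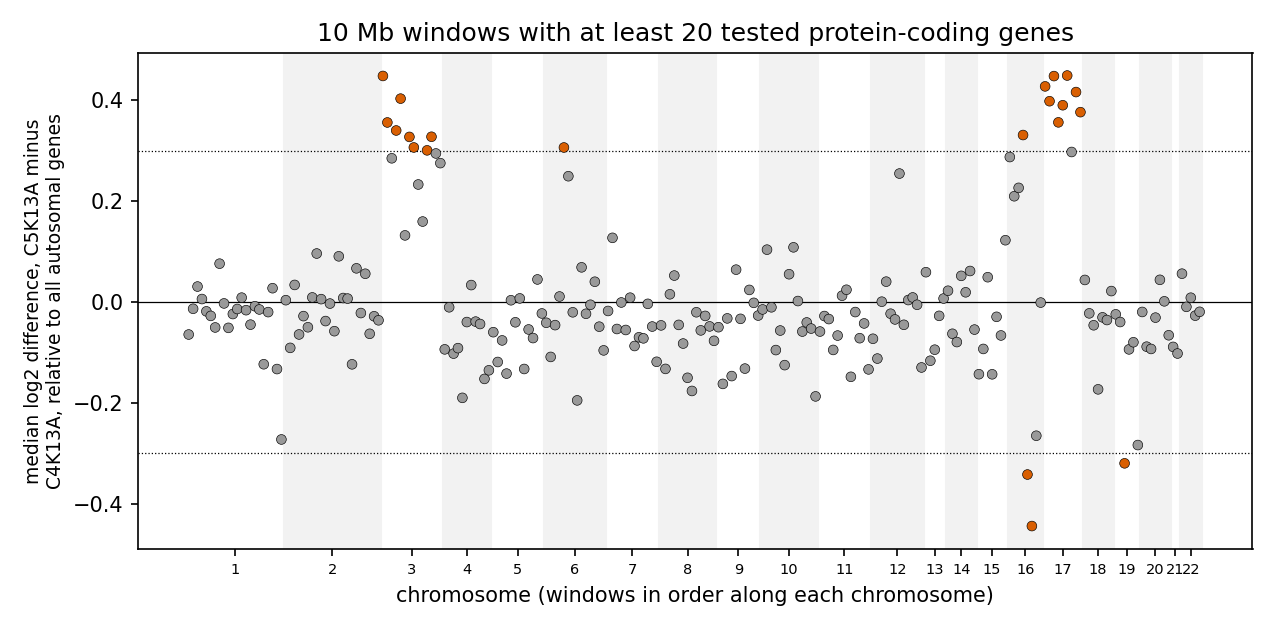
Median log2 difference between the clones, C5K13A minus C4K13A, in each of 230 windows of 10 Mb in chromosome order, relative to all autosomal genes. Orange windows are at least 0.3 from 0 (dotted lines), and 19 of these 21 lie on chromosomes 3, 16 and 17.

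Of the 14 called genes 4 lie on the shifted chromosomes, EPHA3 and EPHA6 on 3 and PRAC1 and LGALS3BP on 17. Their differences were far larger than those of their chromosomes. Less the chromosome's median the difference was 4.85 for EPHA3, 2.06 for EPHA6, 4.11 for PRAC1 and 1.87 for LGALS3BP, on the log2 scale. Around LGALS3BP the tested genes within 1 Mb (23) had a median of 0.30, and around PRAC1 (35) one of 0.39, with 0 neighbours called in either place.

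Among the gene lists, androgen-activated genes had mostly lower values in C5K13A. These are genes that the androgen receptor turns on in prostate cells, and 31 of the 37 tested had a negative difference, with a median of -0.73 against -0.03 over all tested autosomal genes. AFF3 was the 1 called, lower in C5K13A, and DESeq2 called 3 lower and 1 higher. At an unadjusted p under 0.05, 13 were lower and 1 higher (37.8%, against 6.52% of all autosomal genes). The median was -0.58 against C4K13A library 1 and -0.43 against library 2 on log2(CPM + 0.5), and 0.14 between those 2 libraries. Against parental the list had a median of -0.12 in C5K13A and 0.27 in C4K13A. Residual ribosomal RNA differed between these libraries as given above, and in the fit with a covariate for it the median was -0.51. The members did not move as one. KLK2, a kallikrein close to prostate-specific antigen, had 115 CPM in C5K13A, 439 and 308 CPM in C4K13A and 510 and 298 CPM in parental (-1.70 ± 0.38, adjusted p = 0.318). FKBP5, a co-chaperone of steroid receptors, had 272 CPM in C5K13A, 532 and 451 CPM in C4K13A and 156 and 220 CPM in parental (-0.85 ± 0.28, adjusted p = 0.667). C5K13A was the low one for KLK2, and for FKBP5 both clones lay above parental, C4K13A the more so. KLK3, the gene of prostate-specific antigen, differed little (-0.20 ± 0.31, adjusted p = 0.998), and RHOU, a small GTPase, had the opposite sign (0.98 ± 0.23, adjusted p = 0.333). FKBP5, KLK3 and RHOU were chosen after their values were seen.

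The genes of the ATF4 and unfolded protein response, which supply amino acids and folding capacity under stress, had mostly higher values in C5K13A than in C4K13A. Of 53 tested, 44 had a positive difference, with a median of 0.29. By library the median was 0.46 against C4K13A library 1 and 0.23 against library 2 on log2(CPM + 0.5), and -0.17 between those 2 libraries. edgeR called 0 and DESeq2 1, SLC7A5. At an unadjusted p under 0.05, 10 were higher and 0 lower (18.9%). Against parental the median was -0.60 in C5K13A and -0.89 in C4K13A, so that both clones were below parental and C4K13A further. SLC7A5, the large neutral amino acid transporter, had 433 CPM in C5K13A, 155 and 154 CPM in C4K13A and 477 and 797 CPM in parental (1.49 ± 0.30, adjusted p = 0.239). SLC7A11, the cystine transporter, had 49.5 CPM in C5K13A, 23.7 and 28.01 CPM in C4K13A and 144 and 152 CPM in parental (0.94 ± 0.22, adjusted p = 0.332). For SLC7A5 C5K13A was just below the parental values, and for SLC7A11 it was much closer to C4K13A.

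Zinc finger genes on chromosome 19, most of which encode repressors of the KRAB class, had a negative difference in 195 of 231 tested and a median of -0.39. ZNF728 was the 1 called, and DESeq2 called 10, all lower in C5K13A. At an unadjusted p under 0.05, 34 were lower and 2 higher (15.6%). The other 846 tested protein-coding genes of chromosome 19 had a median of -0.04, and 226 zinc finger genes on other chromosomes one of -0.14. Against each C4K13A library C5K13A was at -0.34 and -0.33. Against parental the chromosome 19 list had medians of -0.25 in C5K13A and 0.15 in C4K13A, but these depended on the parental library. Relative to all autosomal genes, C5K13A was at -0.37 against parental library 1 and -0.08 against parental library 2. C4K13A libraries 1 and 2 were at -0.002 and -0.03 against parental library 1, and at 0.26 and 0.22 against parental library 2. Which clone moved was therefore not settled for this list. Many of these genes have near-identical copies, so single members are uncertain.

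**Figure D4:**
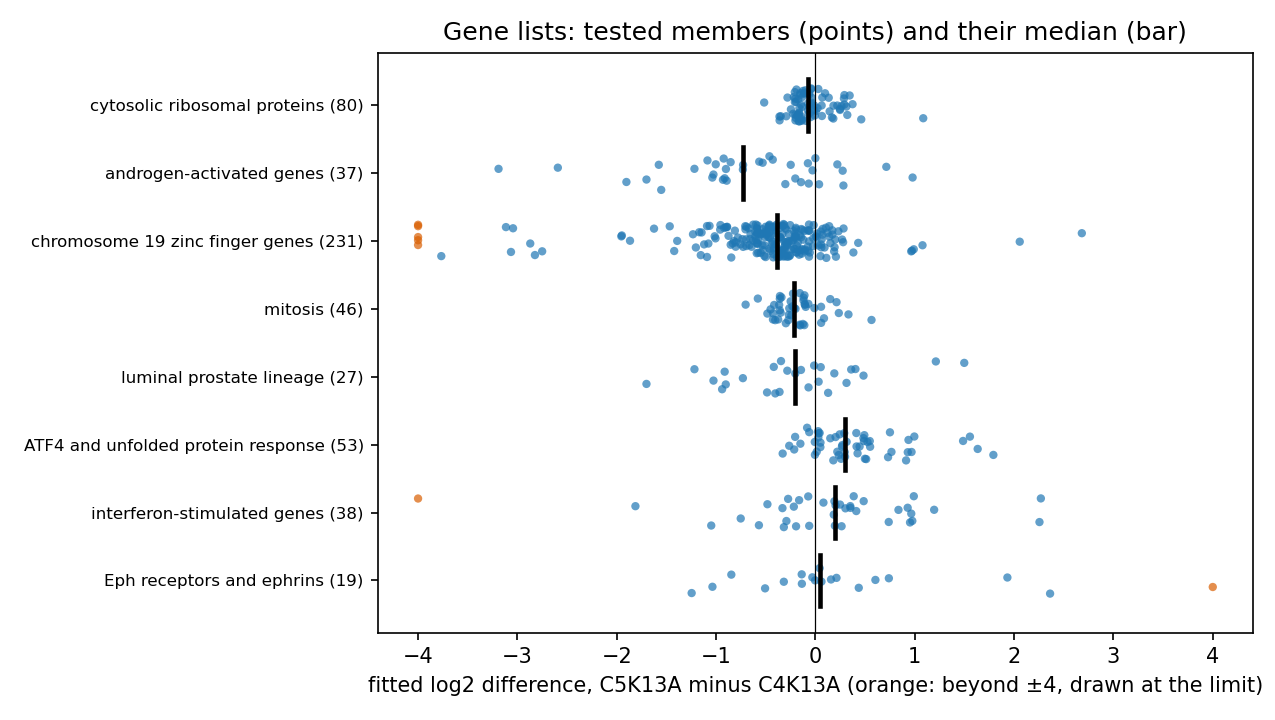
Fitted log2 difference between the clones, C5K13A minus C4K13A, for the tested members of 8 gene lists (points), with the median of each as a black bar and the number tested in brackets. The medians were -0.73 for androgen-activated genes, -0.39 for zinc finger genes of chromosome 19 and 0.29 for ATF4 and unfolded protein response genes, while that of cytosolic ribosomal protein genes was -0.08.

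Other lists on prostate identity held differences of both signs. Luminal lineage genes had a median of -0.20 over 27 tested and basal epithelial markers one of 0.36 over 14, with 0 called in either. At an unadjusted p under 0.05 there were 4 luminal genes (14.8%), all lower, and 6 basal ones (42.9%), 4 higher and 2 lower, against 6.52% of all autosomal genes. DESeq2 called 1 luminal gene, KLK2, and 0 basal ones. TP63 and KRT5, which define basal cells, were at or near 0 in each library. LAMA3, a laminin chain of the basal list, had 237 CPM in C5K13A and 103 and 151 CPM in C4K13A (0.90 ± 0.30, adjusted p = 0.680). Neuroendocrine and neuronal markers had 0 called of 22, 2 by DESeq2, 5 at an unadjusted p under 0.05 (22.7%) and a median of 0.18. Their summed level was nonetheless lowest in C5K13A, at 223 CPM against 692 and 568 CPM in C4K13A and 567 and 503 CPM in parental. Against C4K13A most of that gap was SYT4, a synaptotagmin of secretory vesicles. SYT4 had 6.27 CPM in C5K13A, 478 and 348 CPM in C4K13A and 235 and 62.8 CPM in parental (-6.04 ± 0.86, adjusted p = 0.0759). Androgen-repressed genes, 16 tested, had a median of -0.05, but with quartiles at -0.61 and 2.16 they lay far apart, and the median was 0.28 in the fit with a covariate for residual ribosomal RNA. UGT2B17 was called, DESeq2 called 4 (PTGFR, UGT2B15 and UGT2B17 higher, CAMK2N1 lower), and 5 were higher and 2 lower at an unadjusted p under 0.05 (43.8%). Most of the 5 higher, UGT2B17, UGT2B15 and UGT2B11, lie in the same cluster on chromosome 4, so they are not separate loci. UGT2B11 had 14 counts in C5K13A and 0 in both C4K13A libraries. PTGFR, a prostaglandin receptor, had 184 CPM in C5K13A, 43.1 and 65.8 CPM in C4K13A and 127 and 176 CPM in parental (1.75 ± 0.30, adjusted p = 0.157). Epithelial-mesenchymal transition genes, 30 tested, had a median of 0.02 with VIM called and 4 at an unadjusted p under 0.05 (13.3%).

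Of signalling genes, growth factors and their receptors (27 tested) had a median of 0.16 with IGF1 called and 4 at an unadjusted p under 0.05 (14.8%). Interferon-stimulated genes (38) had one of 0.20 with LGALS3BP called and 6 at that p (15.8%). In the WNT, TGF-beta and BMP list (47) 0 were called, 2 by DESeq2, 6 were at an unadjusted p under 0.05 (12.8%) and the median was -0.03. Within it BMP7, a bone morphogenetic protein, had 21.3 CPM in C5K13A, 4.46 and 2.79 CPM in C4K13A and 13.6 and 27.8 CPM in parental (2.55 ± 0.43, adjusted p = 0.155). Of 22 semaphorins and plexins, guidance molecules and their receptors, 0 were called, 1 by DESeq2, and 4 were at an unadjusted p under 0.05 (18.2%), with 11 differences positive and 11 negative. SEMA6D had 0.0473 CPM in C5K13A, 3.58 and 1.79 CPM in C4K13A and 4.39 and 5.08 CPM in parental (adjusted p = 0.0759). Angiogenesis genes (13) had a median of 0.06, with 0 called, 1 by DESeq2 and 4 at an unadjusted p under 0.05 (30.8%). There THBS1, an inhibitor of vessel growth, had 53.3 CPM in C5K13A and 130 and 224 CPM in C4K13A (-1.73 ± 0.35, adjusted p = 0.239).

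Of genes on the cell surface and in the matrix, collagens (29 tested) had a median of -0.46, clustered protocadherins (31) one of -0.31 and integrins (24) one of 0.13. By library, on log2(CPM + 0.5), the median of the collagens was -0.18 against C4K13A library 1 and 0 against library 2, and that of the protocadherins -0.08 and -0.17. edgeR called 0 of these genes, and 3 collagens (10.3%), 4 protocadherins (12.9%) and 3 integrins (12.5%) were at an unadjusted p under 0.05. DESeq2 called 1, 1 and 0, the first being COL12A1 and the second PCDHGC3. COL12A1 had 25.2 CPM in C5K13A, 96.6 and 78.3 CPM in C4K13A and 49.8 and 25.5 CPM in parental (-1.80 ± 0.40, adjusted p = 0.318). PCDHGC3, of the gamma protocadherin cluster on chromosome 5, had 9.62 CPM in C5K13A, 28.6 and 24.1 CPM in C4K13A and 9.14 and 9.93 CPM in parental (-1.45 ± 0.27, adjusted p = 0.189). For PCDHGC3 it was C4K13A that stood apart, and C5K13A was at the parental level. KRT80, a keratin, had 21.4 CPM in C5K13A, 1.499 and 4.46 CPM in C4K13A and 1.53 and 3.07 CPM in parental (2.85 ± 0.60, adjusted p = 0.268).

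Imprinted genes, which are expressed from one parental allele, had a median of -0.11 over 39 tested, with 0 called, 1 by DESeq2, and 6 at an unadjusted p under 0.05 (15.4%). PEG10 had 0.709 CPM in C5K13A, 14.99 and 4.81 CPM in C4K13A and 54.0 and 159 CPM in parental (-3.80 ± 0.95, adjusted p = 0.410), the lowest level in C5K13A and the highest in parental. PEG3 had 4.99 CPM in C5K13A, 11.01 and 15.8 CPM in C4K13A and 9.98 and 9.02 CPM in parental (-1.42 ± 0.33, adjusted p = 0.357). HOX genes (28 tested) had a median of 0.10, with 0 called, 1 by DESeq2 (HOXB9) and 2 at an unadjusted p under 0.05 (7.14%).

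Lists of housekeeping and growth genes had medians from -0.22 to 0.13. Mitosis genes (46 tested) had a median of -0.22, but it was -0.35 against C4K13A library 1 and -0.05 against library 2, so that it rested on the first. DNA replication genes (42) had a median of -0.08, cytosolic ribosomal protein genes (80) -0.08, nuclear-encoded respiratory chain genes (78) 0.05, replication-dependent histones (62) 0.04 and tRNA synthetases (34) 0.11. Cholesterol synthesis genes (26) had a median of 0.07, fatty acid synthesis genes (24) 0.13, hypoxia and glycolysis genes (42) -0.09, p53 targets (30) 0.08 and acetylation writers, erasers and readers (49) -0.01. In the fit with a covariate for residual ribosomal RNA the respiratory chain (-0.10) and histone (-0.16) medians turned sign, as did that of the Eph receptors and ephrins (-0.05). In these growth and housekeeping lists edgeR called 0 members and DESeq2 called 1, the respiratory chain gene COX7B2. At an unadjusted p under 0.05 were 0 to 5 members of each list. The share was 12.5% for fatty acid synthesis, 11.9% for hypoxia and glycolysis, 10% for p53 targets and 7.69% for cholesterol synthesis. It was at most 2.17% in the others, against 6.52% of all autosomal genes. A p that misses the threshold does not show that these genes were equal in the clones.

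The clones were also compared library by library. Of 10728 genes at 5 CPM or more, 3.50% differed at least 2-fold between C5K13A and C4K13A library 1 and 1.92% between C5K13A and C4K13A library 2. Between the C4K13A libraries it was 1.27% and between the parental libraries 3.32%. C5K13A thus stood further from either C4K13A library than these stood from each other. The share for C4K13A library 1 was also above that between the parental libraries, and the share for C4K13A library 2 below it. Parental library 1, low in residual ribosomal RNA, was the farthest from each clone library (6.36% to 7.65%). Of the C5K13A pairs the nearest was with parental library 2, at 1.80%.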

How the data were processed

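Groups were taken from the sample titles. Per the submitters' processing notes the authors' tools were bcl2fastq, STAR 2.5 and Subread's featureCounts (1.4.6-p5). The build, annotation, strand setting and handling of multiply aligned reads are not named in any source used here. The authors deposited raw counts, whole numbers with no normalization, for 58812 Ensembl gene IDs. Positions and biotypes came by ID from GENCODE v29 (GRCh38), which held 55297 of them and may differ from the authors' annotation; a table of gene names held 54836. Promoter sequences came from RefSeq.

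Counts of the 5 libraries in 3 groups were fitted with edgeR 4.0.16 under R 4.3.3 (genes kept by filterByExpr, TMM scaling, glmQLFit, glmQLFTest), with 2 residual degrees of freedom. Benjamini-Hochberg adjustment ran over all 22743 genes tested, and "called" means an adjusted p under 0.05. Fold changes are fitted log2 values ± SE. Level differences between single libraries are on log2(CPM + 0.5). Where a clone had 0 counts of a gene, the fold is a lower bound computed with 3 counts over the libraries of that clone as the floor. With 1 to 4 counts it is the ratio of counts with an exact 95% interval. Both reflect counting error only, since without molecular identifiers 2 reads may stem from 1 molecule. The fit was also run on simulated counts with the same spread for every gene, which real genes do not have. That run therefore does not show how reliable the calls are here.

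The rule for named genes takes HOXB13, then the 15 highest and 15 lowest called protein-coding genes with at least 5 CPM and no overlap, then up to 4 called members of each of 46 lists (2 as values where none was called), then up to 10 genes present in one clone alone, and up to 3 called long noncoding genes in each direction. Members, lists and tests were chosen with earlier results of these data known. Lists have no test of their own. No 2 libraries were close enough to be a repeat deposit of 1 library (chi-square per gene 36.9 or more in each pair).

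The alternatives tried were RLE factors, upper-quartile factors, no filter, a filter at 5 CPM in 1 library, DESeq2 1.42.0, limma-voom (limma 3.58.1), the 3 clone libraries alone, leaving out genes of mitochondrial, small or ribosomal RNA, a replicate block, a split at 200 CPM of mitochondrial ribosomal RNA as a covariate, a minimum fold of 2, and each library but C5K13A left out. Genes off the autosomes stayed in the fit and are not reported here.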

Additional observations from a re-analysis of the deposited data

Results flagged for a closer look

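In each of the 14 called genes the change from parental differed between the clones. That difference is the same contrast of C5K13A with C4K13A that called them, so it adds no second test. The difference, C5K13A minus C4K13A, was 7.08 for UGT2B17, 5.15 for EPHA3, 4.49 for PRAC1, 2.82 for DPYSL5, 2.36 for EPHA6, 2.33 for VIM and 2.26 for LGALS3BP on the log2 scale. It was -3.49 for IGF1, -2.59 for AFF3 and -2.51 for ZNF736. By counts, SPAAR was at least 356-fold and SLC17A2 at least 225-fold higher in C5K13A, PDZRN4 was at least 41.1-fold lower, and ZNF728 was 88.2-fold lower. Each rests on 1 library of C5K13A. With 1 or 2 libraries in a group, no single library could be examined as standing apart from its group.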

How the results depend on the processing

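The count of 14 called autosomal genes depended on the fit, while their directions did not turn in any alternative. It was 18 with RLE factors, 7 with upper-quartile factors, 390 without a filter, 0 with a filter at 5 CPM (811 at an unadjusted p under 0.05), 169 with DESeq2, 0 with limma-voom (1069 at an unadjusted p under 0.05), 114 with the 3 clone libraries alone, 85 with the split by residual ribosomal RNA and 3 with a minimum fold of 2. Those 3 were SPAAR, SLC17A2 and UGT2B17. Leaving out a library gave 46 to 147 (147 and 130 without parental library 1 and 2, 46 and 72 without C4K13A library 1 and 2), with all 14 among them each time; a lone library is then assumed to vary like the other groups. All 14 also remained with RLE factors, without a filter, with DESeq2, in the clone libraries alone and with the split. Upper-quartile factors ended the calls of PDZRN4, ZNF728, AFF3, LGALS3BP, VIM, DPYSL5 and PRAC1 (adjusted p 0.0535 to 0.0610), and leaving out mitochondrial, small and ribosomal RNA genes ended that of ZNF728 (0.0511). The highest adjusted p of the 14 over all alternatives ran from 0.136 for EPHA6 and ZNF736 to 0.892 for ZNF728.

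The genes with C4K13A alone away from parental, 5, were 8 with RLE factors, 2 with upper-quartile factors, 115 without a filter, 61 with DESeq2 and 35 with the split. Those with C5K13A alone away, 3, were 118 without a filter, 48 with DESeq2 and 20 with the split. Both were 0 with the 5 CPM filter, limma-voom and the minimum fold. Leaving out a library gave 15 to 52 and 10 to 40. The clone libraries alone give no such counts. With replicate number as a block, 202 autosomal genes were called, with 44 and 91 away in C4K13A alone and C5K13A alone. The labels do not say that a number marks a shared culture, only parental and C4K13A share both numbers, and their same-numbered deviations correlated with r = 0.216 over 10728 genes. 

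Genes present in C4K13A alone, 3, were 0 at 5 CPM and 5 to 9 without a C4K13A library. Those present in C5K13A alone stayed at 4, or 5 without C4K13A library 2. The 21 windows became 11 at 20 Mb, 34 at a threshold of 0.2 and 0 at 0.5, and 22 to 24 without a C4K13A library. Signs turned for HOXB13 (-0.076 with the split), CLDN5 (0.15 with the split and 0.45 without C4K13A replicate 1, against -0.44 without C4K13A replicate 2) and KLK13 (2.25 with the split), none of them called. C5K13A cannot be left out, which is the main limit on each value here.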

Other observations

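The lists not described above had 0 members called by edgeR. Steroid and androgen metabolism enzymes had a median log2 difference, C5K13A minus C4K13A, of 0.07 over 16 tested, zinc transporters and metallothioneins 0.10 over 28, glutathione S-transferases 0.19 over 14, aldo-keto reductases and aldehyde dehydrogenases -0.03 over 16, and autosomal cancer-testis genes -0.24 over 32. Antigen presentation genes had 0.02 over 24, NF-kB targets -0.09 over 17, thioredoxin and alpha-arrestin genes 0 to 2 decimals over 12, cadherins -0.24 over 12, kallikreins -0.43 over 8, keratins 0.18 over 9 and matrix metalloproteinases with their inhibitors 0.18 over 9. By library, on log2(CPM + 0.5), the kallikreins were at -0.10 against C4K13A library 1 and 0 to 2 decimals against library 2, and the cadherins at -0.10 and -0.14. In the fit with a covariate for residual ribosomal RNA the signs of kallikreins (0.38), keratins (-0.20), steroid enzymes (-0.02) and the thioredoxin and alpha-arrestin genes (-0.03) turned. At an unadjusted p under 0.05 were 4 aldo-keto reductases and aldehyde dehydrogenases (25%), 2 cadherins (16.7%), 2 glutathione S-transferases (14.3%), 1 kallikrein (12.5%), 1 keratin (11.1%), 1 metalloproteinase or inhibitor (11.1%), 3 zinc transporters (10.7%), 1 steroid enzyme (6.25%) and 1 cancer-testis gene (3.12%), against 6.52% of all autosomal genes. It was 0 in the other 3 lists. DESeq2 called KLK2, lower in C5K13A, and KRT80 and TIMP2, higher.

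GSTA2, a glutathione transferase of the alpha class, had 26.3 CPM in C5K13A, 0.620 and 6.25 CPM in C4K13A and 0.487 and 0.926 CPM in parental (2.94 ± 0.93, adjusted p = 0.641 with edgeR). The C4K13A libraries themselves lay far apart for GSTA2. ROBO1, a guidance receptor on chromosome 3, had 10.02 CPM in C5K13A, 3.12 and 1.05 CPM in C4K13A and 18.7 and 30.02 CPM in parental (2.26 ± 0.53, adjusted p = 0.359).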
